A study of Mus musculus with 4 samples.

Results

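The glucocorticoid receptor gene NR3C1 and 4 of its best-known target genes, TSC22D3, FKBP5, SGK1 and KLF9, were followed across 4 RNA sequencing libraries of CD8+ T cells of patients who received a PD-1 antibody. The genes were taken by name, and each of the 5 symbols matched 1 of the 64253 gene entries in every library. No measured value entered that choice, although earlier results of these data were known when it was made.

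The glucocorticoid receptor rests in the cytoplasm in a complex with HSP90 and its co-chaperones. Binding of cortisol, or of a drug such as dexamethasone, sends it to the nucleus, where it switches on genes next to its binding sites and dampens inflammatory factors such as NF-kB and AP-1. Cortisol in the blood follows a daily rhythm and rises in stress, and steroid drugs are in wide use, so blood T cells can carry a transcriptional trace of either. TSC22D3 encodes GILZ, a leucine zipper protein that mediates part of the anti-inflammatory action. FKBP5 encodes FKBP51, a co-chaperone that lowers the affinity of the receptor for hormone and so closes a negative feedback loop. SGK1 encodes a serum- and glucocorticoid-regulated kinase of the AKT-related family, and KLF9 a Kruppel-like transcriptional regulator.

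The cells were sorted by flow cytometry from peripheral blood as CD8+ T cells with high CD11a, the integrin chain that marks antigen-experienced T cells. The 4 groups held 1 library each: a responder after therapy, a non-responder after therapy, a responder before therapy and a non-responder before therapy. A cycle of the antibody had 4 doses, 1 every 3 weeks, and 1 ng of RNA went into each library, per the labels. One treatment label places all samples after a cycle of therapy, whereas the group label places 2 of them before it, and the group label was followed. The labels tie no library from after therapy to the same patient as one from before, give no clock time of blood collection and do not mention steroid treatment. A difference between any 2 libraries can therefore also be a difference between patients, hours of the day or drugs, and these cannot be told apart. A PD-1-positive tag stands in the names of the samples from before therapy, and a sort on PD-1 is not stated. The organism field names mouse, but the entries are human genes on the build hg38, and the data were read as human.

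The libraries held between 65500644 and 129773591 counts, with a count for 26352 to 30272 genes. Levels are CPM, read counts scaled to library size and corrected for differences in composition by TMM normalisation. With 1 library per group there was no replicate, so ratios between 2 libraries have no p-value. The 95% intervals printed with log2 ratios cover at most the counting error of reads taken as independent. Each library enters 2 of the 4 pairs that were compared. Genes of the sorted population (CD3 and CD8 chains, ITGAL, PDCD1) had a count in every library, with a summed level of 4567 CPM in the responder library and 3218 CPM in the non-responder library after therapy, and of 4434 and 3658 CPM in the responder and the non-responder before therapy. Markers of monocytes and neutrophils, 17 genes all with a count in every library, summed to 2089 CPM in the responder library and 10051 CPM in the non-responder library after therapy, against 166 and 227 CPM in the responder and the non-responder before therapy. In such bulk libraries, more cells of a type and more RNA per cell cannot be told apart. Epithelial markers, 8 genes, summed to 216 CPM in the responder before therapy and to between 2.56 and 14.8 CPM in the other libraries. In that library all of the epithelial markers had a count, whereas KRT19 and EPCAM were at 0 in both libraries from after therapy, CDH1 and CLDN4 in the non-responder after therapy as well, and EPCAM, CDH1 and CLDN4 in the non-responder before therapy.

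**Figure D1:**
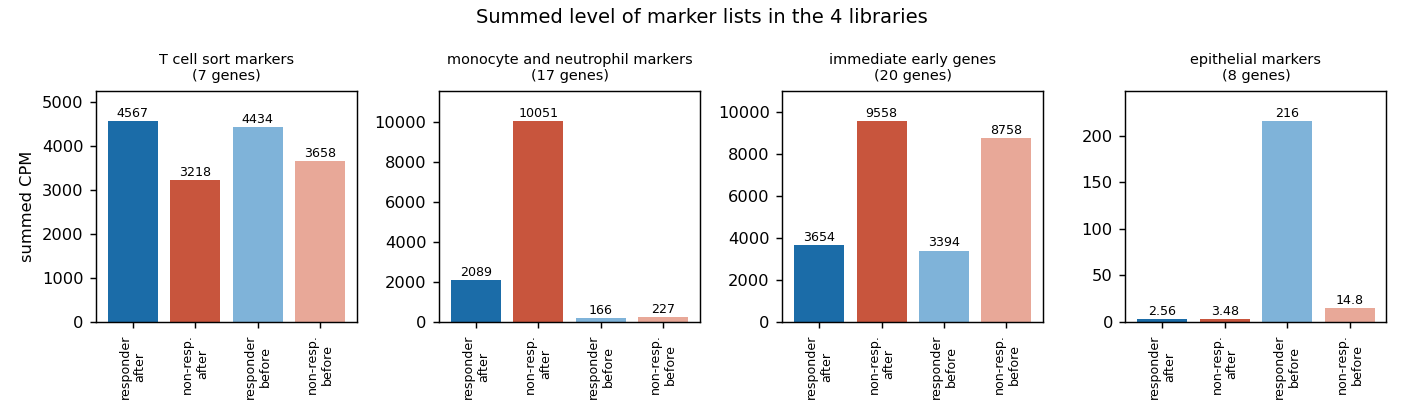
Summed CPM (TMM-normalised, linear axes from 0) of 4 lists of marker genes in the 4 libraries, 1 bar per library. Monocyte and neutrophil markers reach 10051 CPM in the non-responder library after therapy, the immediate early genes are higher in both non-responder libraries, and the epithelial markers stand at 216 CPM in the responder before therapy alone.

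NR3C1 (ENSG00000113580, chromosome 5 of hg38: 143277931 to 143435512), the receptor itself, was the steadiest of the 5 genes, with the highest library 1.79-fold above the lowest. It stood at 172 CPM in the responder library and 188 CPM in the non-responder library after therapy, and at 126 CPM in the responder library and 225 CPM in the non-responder library before therapy. NR3C1 was lower in the responder at both times, but the gap after therapy was small. The log2 ratio of responder over non-responder was -0.13 (95% interval -0.15 to -0.098) after therapy and -0.84 (-0.88 to -0.80) before therapy. After therapy the receptor was higher than before in responders, with a log2 ratio of 0.46 (0.42 to 0.49), and lower in non-responders, with a log2 ratio of -0.26 (-0.29 to -0.23). The second of these turned to 0.034 when libraries were scaled to their CD3 and CD8 chains. NR3C1 ranked between 707 and 1473 among all genes by CPM, so the receptor was plainly expressed in every library.

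TSC22D3 (ENSG00000157514, chromosome X: 107713221 to 107777342) took some of the largest shares of the reads. By CPM it ranked 31 among all genes in the responder and 10 in the non-responder after therapy, and 68 in the responder and 24 in the non-responder before therapy. Its level was 1638 CPM in the responder library and 4607 CPM in the non-responder library after therapy, against 1009 and 2191 CPM in the responder and the non-responder before therapy. Both non-responder libraries lay above both responder libraries. The responder was 2.81-fold lower after therapy (log2 ratio -1.49, interval -1.50 to -1.48) and, before therapy, 2.17-fold lower (-1.12, interval -1.13 to -1.11). Libraries from after therapy were higher than those from before, by 0.70 on the log2 scale in responders and by 1.07 in non-responders.

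FKBP5 (ENSG00000096060, chromosome 6: 35573585 to 35728583) went against the other targets. Its level was 219 CPM in the responder library and 152 CPM in the non-responder library after therapy, against 103 CPM in the responder library and 27.7 CPM in the non-responder library before therapy. FKBP5 was higher in the responder at each time, and both libraries from after therapy lay above both from before. FKBP5 was 1.44-fold higher in the responder after therapy (log2 ratio 0.52, interval 0.50 to 0.55) and, before therapy, 3.73-fold higher (1.90, interval 1.83 to 1.97). Scaling to the CD3 and CD8 chains left 0.066 of the log2 ratio after therapy. Between times, the libraries from after therapy were 2.12-fold higher in responders and 5.50-fold higher in non-responders.

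SGK1 (ENSG00000118515, chromosome 6: 134169246 to 134318112) set a single library apart. It stood at 9.52 CPM in the responder library and 105 CPM in the non-responder library after therapy, and at 8.70 CPM in the responder library and 15.4 CPM in the non-responder library before therapy. The non-responder library after therapy, which also had the highest summed level of monocyte and neutrophil markers, was above all of the others. The responder was 11.0-fold lower after therapy (log2 ratio -3.46, interval -3.54 to -3.37), the widest gap of any of the 5 genes in any of the 4 pairs, and 1.77-fold lower before therapy (-0.83, interval -0.97 to -0.69). In non-responders SGK1 was 6.78-fold higher after than before therapy. In responders its log2 ratio of after over before was 0.13, with a counting interval of -0.004 to 0.26 that took in 0. That ratio came to 0.025 by library size only and to 0.21 scaled to the CD3 and CD8 chains. No difference was established there.

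KLF9 (ENSG00000119138, chromosome 9: 70384597 to 70414624) had the fewest reads of the 5 genes over all libraries, 694 to 3677 in each. Its level was 7.10 CPM in the responder library and 32.8 CPM in the non-responder library after therapy, and 8.33 CPM in the responder library and 16.0 CPM in the non-responder library before therapy. As for TSC22D3, both non-responder libraries lay above both responder libraries. The responder was 4.62-fold lower after therapy (log2 ratio -2.21, interval -2.32 to -2.10) and, before therapy, 1.92-fold lower (-0.94, interval -1.09 to -0.81). KLF9 was 2.05-fold higher after than before therapy in non-responders, and in responders its log2 ratio of after over before was -0.23 (interval -0.38 to -0.086).

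**Figure D2:**
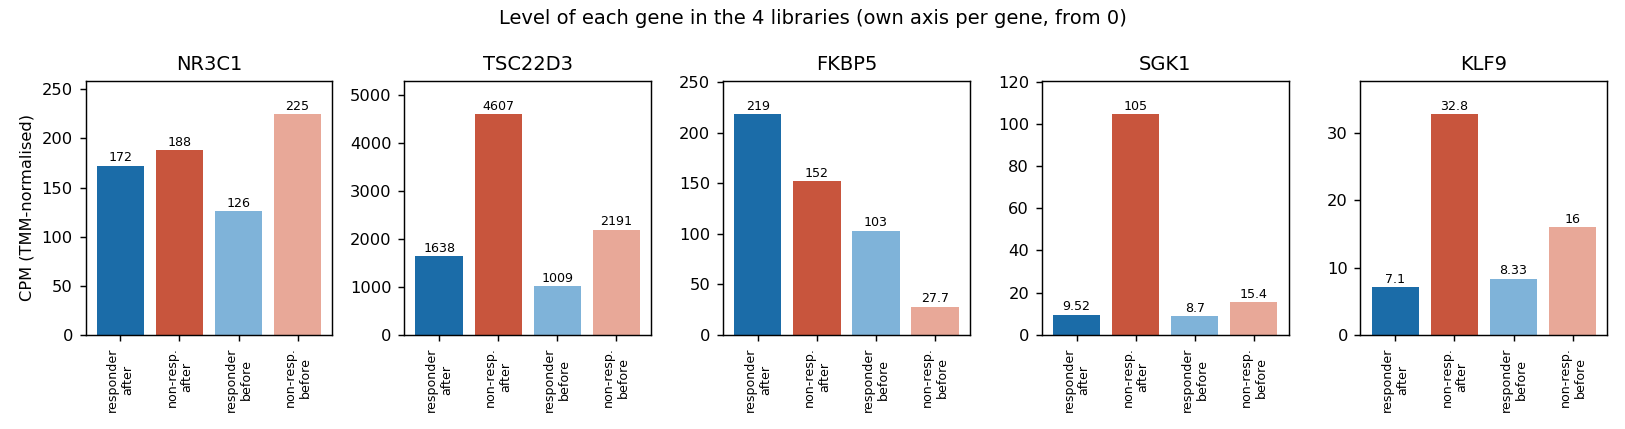
CPM (TMM-normalised) of the receptor gene and 4 target genes in the 4 libraries, 1 bar per library, each gene on its own linear axis from 0. TSC22D3, SGK1 and KLF9 are highest in the non-responder after therapy (4607, 105 and 32.8 CPM), FKBP5 in the responder after therapy (219 CPM) and NR3C1 in the non-responder before therapy (225 CPM).

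Set side by side, 3 of the 5 genes (TSC22D3, SGK1 and KLF9) were at least 2-fold lower in the responder after therapy and 0 at least 2-fold higher. Among all genes that reached 5 CPM in either library, 8.87% were lower and 5.78% higher by that much. Before therapy TSC22D3 was at least 2-fold lower and FKBP5 at least 2-fold higher, against a background of 8.94% lower and 11.5% higher. Only TSC22D3 passed 2-fold in the same direction at both times, on the lower side. So did 3.05% of all genes that reached 5 CPM in at least 1 of the 4 libraries. Of the 5 genes, 0 were at least 2-fold higher at both (background 2.22%). Between times, FKBP5 passed 2-fold on the higher side in responders (background 8.5%), and TSC22D3, FKBP5, SGK1 and KLF9 in non-responders (background 15.7%). None of the 5 genes was at least 2-fold lower after therapy in responders or in non-responders, in a background of 4.65% and 8.29%. Only FKBP5 was at least 2-fold higher after therapy in both response groups (background 5.07%), and 0 were lower in both (background 2.41%). Scaled by library size only, FKBP5 in responders came to 0.98, which leaves 0 genes past 2-fold there and in both groups, and KLF9 in non-responders to 0.996, which leaves 3. Before therapy SGK1, NR3C1 and KLF9, at log2 ratios of -0.83, -0.84 and -0.94, lay just short of the 2-fold limit, and TSC22D3, at -1.12, just past it. Scaled to the CD3 and CD8 chains, all 5 genes were past it in that pair.

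The gap between responder and non-responder was not the same at both times. The log2 ratio after therapy minus that before therapy was -2.63 for SGK1, -1.38 for FKBP5, -1.26 for KLF9, -0.37 for TSC22D3 and 0.71 for NR3C1. For SGK1 and KLF9 the responder stood further below the non-responder after therapy, while for FKBP5 its lead was smaller. With 1 library in each group these differences between times could not be tested.

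**Figure D3:**
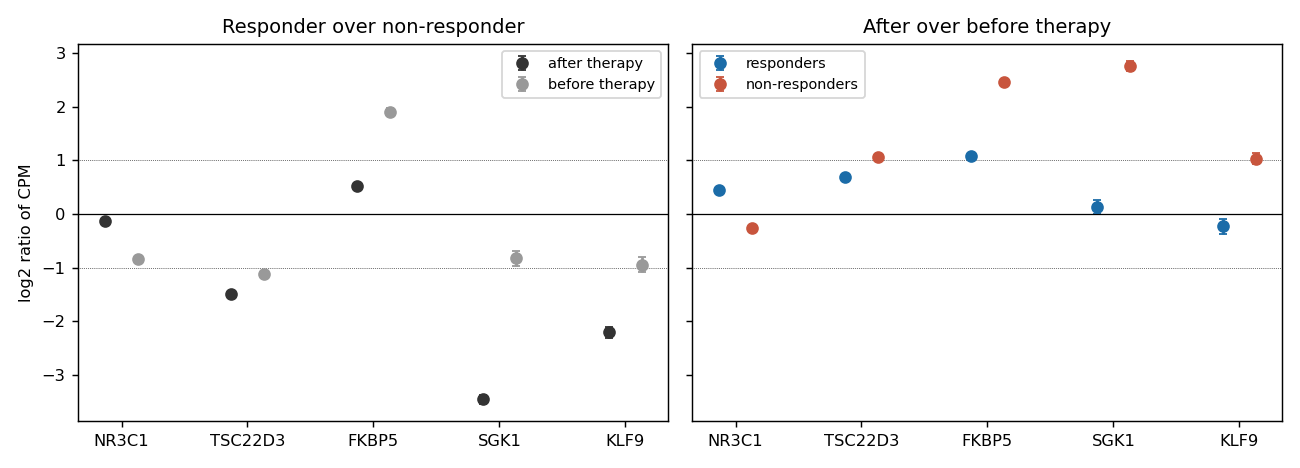
Log2 ratios of CPM for the 5 genes: responder over non-responder after and before therapy (left), and after over before therapy in responders and non-responders (right). Points are ratios of 1 library to another, bars are 95% counting intervals (often smaller than the point), and dotted lines mark 2-fold; FKBP5 alone lies above 0 in both comparisons of responder with non-responder.

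Target reads were also set against NR3C1 reads within a library, a ratio that no scaling changes. It cannot show whether a target followed its receptor, since any gene with a like difference between libraries comes out level. TSC22D3 had 950 reads per 100 NR3C1 reads in the responder and 2451 in the non-responder after therapy, against 803 and 974 in the responder and the non-responder before therapy. Per receptor read, TSC22D3 thus lay close together in 3 libraries and higher in the non-responder after therapy. SGK1 had 5.53 and 55.7 reads per 100 NR3C1 reads in the responder and the non-responder after therapy, and 6.93 and 6.86 in the responder and the non-responder before therapy. KLF9 had 4.12 and 17.5 in the responder and the non-responder after therapy, and 6.63 and 7.14 in the responder and the non-responder before therapy. For these 3 targets the libraries from before therapy were nearly level once set against NR3C1. FKBP5 was not: it had 127 and 80.9 reads per 100 NR3C1 reads in the responder and the non-responder after therapy, and 82.2 and 12.3 in the responder and the non-responder before therapy. Set against CD3E instead, the libraries from before therapy were not level. Per 100 CD3E reads the responder and the non-responder had 138 and 394 for TSC22D3, 1.19 and 2.78 for SGK1, and 1.14 and 2.89 for KLF9. For FKBP5 they had 14.2 and 4.97. Compared per kilobase of the gene length given in the files, TSC22D3 was the highest of the 5 genes in every library, at 212 to 967 CPM per kilobase. NR3C1 came next in 3 libraries, at 13.7 to 24.5 CPM per kilobase over all 4, and FKBP5 lay between 2.60 and 20.6, above NR3C1 in the responder after therapy. SGK1, at 0.87 to 10.5 CPM per kilobase, stood below KLF9, at 1.37 to 6.35, in every library except the non-responder after therapy.

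**Figure D4:**
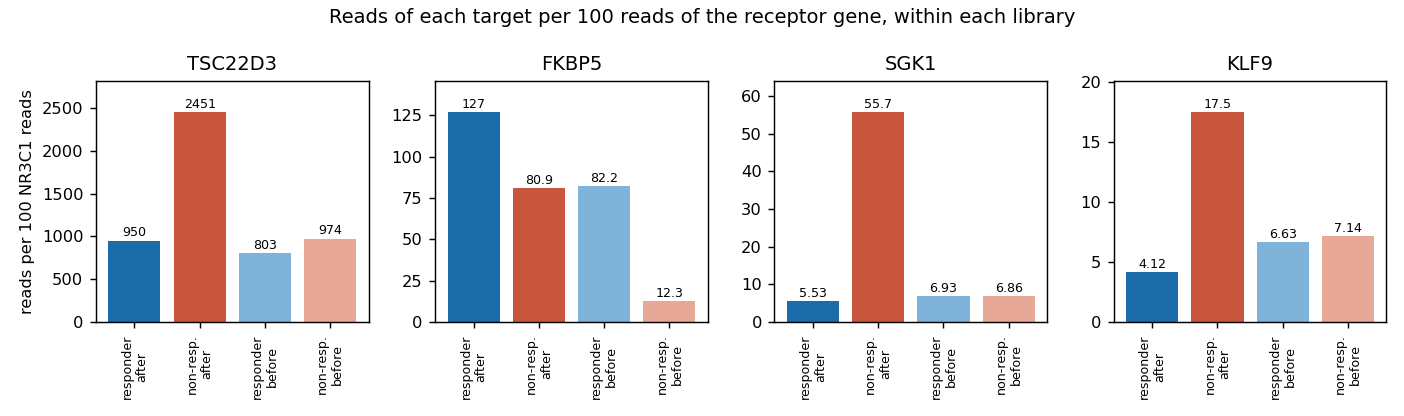
Reads of each target gene per 100 reads of NR3C1 in the same library, 1 bar per library on linear axes from 0. For TSC22D3, SGK1 and KLF9 the non-responder after therapy stands above the other libraries (2451, 55.7 and 17.5), and for FKBP5 the non-responder before therapy stands below them (12.3).

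Profiles over the 4 libraries were compared by the Euclidean distance between centred log2 CPM values, a description over 4 points only. Among the 5 genes the closest pair was TSC22D3 and KLF9, at a distance of 0.71, with 155 of 11698 other genes closer to TSC22D3 than KLF9 was. SGK1 and KLF9 lay at 1.37, with 76 genes closer to SGK1. NR3C1 lay at 1.26 from TSC22D3, the nearest of its targets, and 8456 of the 11698 genes were closer to it than that. FKBP5 was at 2.60 or more from each of the other genes. Among those 11698 other genes with a mean of at least 5 CPM, those nearest to NR3C1 were CEP95, ATP6V1G1 and SNRPB2, at distances of 0.042 to 0.061. Nearest to TSC22D3 were CPEB4, BACH1 and CCDC88A, and nearest to FKBP5 were ZNF382, CPSF2 and ZNF630. KLF9 was nearest to RP11-347P5.1, CPNE8 and the kinase gene TEC. SGK1 had MARCKS, VEGFA and ODF3B, at 0.35 to 0.53, and VEGFA, which encodes vascular endothelial growth factor, stood at 1.96 and 26.2 CPM in the responder and the non-responder after therapy and at 1.55 and 3.11 CPM in the responder and the non-responder before therapy.

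The fit over all genes compared responder with non-responder libraries, with time as its other term, and so treated the change of that difference between times as error, with 1 residual degree of freedom. edgeR's quasi-likelihood test called 0 of the 24069 genes tested (0%, adjusted p under 0.05), with 2123 genes at an unadjusted p under 0.05, while DESeq2 called 947 (4.43%) and limma-voom 0 (0%). In edgeR, responder over non-responder was -1.31 ± 0.20 for TSC22D3 (log2 ratio ± SE, adjusted p = 0.556), -2.15 ± 0.78 for SGK1 (adjusted p = 0.564), -1.58 ± 0.46 for KLF9 (adjusted p = 0.556), 1.21 ± 0.40 for FKBP5 (adjusted p = 0.561) and -0.48 ± 0.25 for NR3C1 (adjusted p = 0.623). DESeq2 called 4 of the 5 genes for response: TSC22D3 (adjusted p = 0.000111), SGK1 (0.00999) and KLF9 (0.0251) lower, and FKBP5 (0.0454) higher. In the same DESeq2 fit 2.29% of genes were called lower and 2.14% higher, and NR3C1 was not called (adjusted p = 0.48). The calls thus rest on the tool. Without the time term the fit over all 4 libraries gave -2.72 for SGK1, -1.36 for TSC22D3, -1.66 for KLF9, 0.84 for FKBP5 and -0.47 for NR3C1, and the values with a library left out, which also lack that term, are to be set against these. Without the non-responder library after therapy, the fitted ratio of SGK1 was -0.76, that of TSC22D3 was -0.73, that of KLF9 was -1.06 and that of FKBP5 was 2.54. Without the non-responder library from before therapy, FKBP5 came to 0.082 and SGK1 to -3.52. FKBP5 came to 0.20 without the responder library from after therapy. For NR3C1 the fitted ratio ranged from -0.72 without the responder library after therapy to -0.26 without the responder library before therapy.

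For time, with response as a covariate, edgeR called 0 of 24069 genes (0%), with 2734 at an unadjusted p under 0.05, DESeq2 called 1556 (7.52%) and limma-voom 2 (0.00831%). Those 2, LYZ and RP11-1143G9.4, are named here because of their values. After over before therapy was 1.77 ± 0.41 for FKBP5 and 0.89 ± 0.19 for TSC22D3 in edgeR (log2 ratio ± SE, adjusted p = 0.406 for each). DESeq2 called both higher after therapy (adjusted p = 0.000271 for FKBP5 and 0.012 for TSC22D3), beside 5.28% of all genes called higher and 2.24% lower. SGK1 (1.45 ± 0.78), KLF9 (0.40 ± 0.45) and NR3C1 (0.10 ± 0.25) were called by neither tool, with adjusted p of 0.547, 0.769 and 0.913 in edgeR. Markers of monocytes and neutrophils moved with time as well, and DESeq2 called 16 of the 17, all but FCGR3B, higher after therapy.

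The markers of other cells were set beside the 5 genes. In the pair from after therapy SGK1, KLF9 and TSC22D3 were furthest below the non-responder. There 16 of 17 monocyte and neutrophil markers were at least 2-fold lower in the responder too (all genes 8.87%). The median log2 ratio over the list was -2.24. For FCGR3B, the remaining marker, the responder stood above the non-responder by 2-fold or more, in this pair and before therapy. In responders the summed level of the list was 2089 CPM after therapy, against 166 CPM before it. In the same pair TSC22D3 stood at 1638 against 1009 CPM, FKBP5 at 219 against 103 CPM and NR3C1 at 172 against 126 CPM, while SGK1 stood at 9.52 against 8.70 CPM and KLF9 at 7.10 against 8.33 CPM. In non-responders the sum was 10051 CPM after therapy, against 227 CPM before it, and TSC22D3, FKBP5, SGK1 and KLF9 were all higher after therapy. The part of these markers in the values of the 5 genes was not tested. Platelet markers (8 genes) summed to 20.5 and 186 CPM in the responder and the non-responder after therapy, against 28.5 and 54.3 CPM in the responder and the non-responder before therapy. Dendritic cell markers (8 genes) summed to 6.71 and 67.3 CPM in the responder and the non-responder after therapy, against 3.99 and 3.87 CPM in the responder and the non-responder before therapy. B and plasma cell markers lay between 54.3 and 91.0 CPM over the 4 libraries, NK cell markers between 219 and 458 CPM, and red cell markers between 2.85 and 22.1 CPM, which was that of the non-responder before therapy. The epithelial markers moved with the pair from before therapy, at 216 CPM in the responder library and 14.8 CPM in the non-responder, and their part in the FKBP5 difference of that pair was not tested. Immediate early genes, which T cells induce within minutes of stimulation or handling, had a higher sum in both non-responder libraries than in both responder libraries. Their 20 members summed to 3654 CPM in the responder library and 9558 CPM in the non-responder library after therapy, and to 3394 and 8758 CPM in the responder and the non-responder before therapy. Their median log2 ratio of responder over non-responder was -1.90 after and -1.63 before therapy. Mitochondrial counts made up 3.37% and 4.75% of counts in the responder and the non-responder after therapy, and 4.03% and 5.43% in the responder and the non-responder before therapy. The part of either in the values of the 5 genes was not tested.

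Other genes that glucocorticoids are known to induce in leukocytes or other tissues were mostly lower in the responder, as were TSC22D3, SGK1 and KLF9. Of 26 such genes, all with at least 1 CPM in at least 1 library, 13 were lower and 1 was higher by at least 2-fold in the responder after therapy (all genes 8.87% and 5.78%), and the median log2 ratio was -0.998. Before therapy 12 of the 23 with at least 5 CPM were lower and 0 higher by that much (all genes 8.94% and 11.5%), with a median of -0.91 over all 26. Over all genes with at least 1 CPM in a library the medians were 0.008 and 0.052. At both times, 7 of the 26 were at least 2-fold lower, beside 3.05% of all genes, and 1 (3.85%), IL1R2, at least 2-fold higher, beside 2.22%. IL1R2, a decoy receptor for interleukin 1, is named for its value and stood at 6.83 and 2.46 CPM in the responder and the non-responder after therapy and at 0.82 and 0 CPM in the responder and the non-responder before therapy. edgeR called 0 of the 26 for response, with 14 at an unadjusted p under 0.05, beside 2123 of 24069 of all genes. DESeq2 called 12, all lower, beside 2.29% of all genes called lower and 2.14% higher. The list holds 8 genes that are also early response genes, and the medians over the other 18 were -0.62 after and -0.29 before therapy.

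PER1, a clock gene that the receptor induces directly, stood at 24.6 CPM in the responder library and 256 CPM in the non-responder library after therapy, and at 25.4 and 198 CPM in the responder and the non-responder before therapy. Its gap was wide at both times, unlike that of SGK1. IRS2, an adaptor of the insulin receptor, had a like pattern, with 6.57 and 39.6 CPM in the responder and the non-responder after therapy and 3.36 and 17.3 CPM in the responder and the non-responder before therapy. CEBPD, a transcription factor also abundant in myeloid cells, was like SGK1 furthest apart after therapy, but ran opposite to it before therapy. It stood at 15.8 CPM in the responder library and 162 CPM in the non-responder library after therapy, and at 12.1 and 7.33 CPM in the responder and the non-responder before therapy. PDK4, which restrains pyruvate dehydrogenase, stood at 3.16 and 28.7 CPM in the responder and the non-responder after therapy and at 1.56 and 0 CPM in the responder and the non-responder before therapy. Against a floor of 3 counts in the library at 0, the responder before therapy was at least 33.9-fold higher, a bound for counting error alone.

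Few genes of the list went with FKBP5. In both pairs of responder with non-responder, 4 of the 26 were higher in the responder and 15 lower. Of all genes, 4861 of 13193 were higher and 3751 lower in both pairs. IL7R, the interleukin 7 receptor chain that glucocorticoids raise in T cells, was higher in the responder at both times, at 469 and 325 CPM in the responder and the non-responder after therapy and 286 and 145 CPM in the responder and the non-responder before therapy. TXNIP, a regulator of glucose uptake, differed little after therapy, at 7263 CPM in the responder library and 7846 CPM in the non-responder, and stood at 3743 CPM in the responder library and 2006 CPM in the non-responder library before therapy. CXCR4, the chemokine receptor that holds T cells in bone marrow, went the way of TSC22D3, at 837 and 1226 CPM in the responder and the non-responder after therapy and 223 and 544 CPM in the responder and the non-responder before therapy. IL7R, TXNIP and CXCR4 are named here after their values were seen. Between times the list was mostly higher after therapy, with medians of 0.85 in responders and 0.88 in non-responders, and 18 of 26 genes were higher in both, beside 5060 of 13193 of all genes. Of the monocyte and neutrophil markers 16 of 17 were higher in both as well, and the list holds genes that myeloid cells express, such as CD163, IL1R2 and CEBPD. The part of such cells in these values was not tested.

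**Figure D5:**
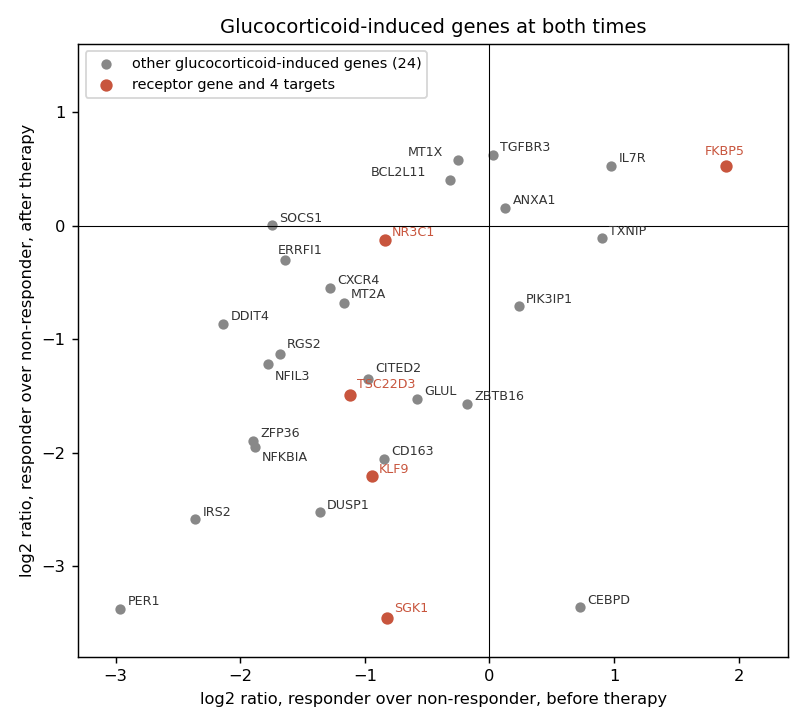
Log2 ratio of responder over non-responder before therapy (horizontal) against that after therapy (vertical) for 24 of 26 other glucocorticoid-induced genes (grey, those with a count in every library) and the 5 genes described (red). Most points lie below and left of 0, PER1 the lowest of the grey points on both axes, and FKBP5 lies above and right of 0.

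Genes of the receptor complex differed less than the induced genes. Of 12 genes, FKBP5 among them, 0 were higher and 1 (8.33%) lower by at least 2-fold in the responder after therapy (all genes 5.78% and 8.87%). Before therapy 2 (16.7%) were higher and 0 lower by that much (all genes 11.5% and 8.94%). The medians were 0.26 after and -0.025 before therapy. NR3C2, the mineralocorticoid receptor, which binds cortisol too, stood at 12.4 and 33.3 CPM in the responder and the non-responder after therapy and at 6.33 and 11.7 CPM in the responder and the non-responder before therapy, and was thus lower in the responder at both times, as TSC22D3 was. FKBP4, the co-chaperone that favours transport of the receptor to the nucleus and is opposed by FKBP5, lay between 22.9 and 39.1 CPM in the 4 libraries. HSP90AA1, which folds the receptor, stood at 656 and 774 CPM in the responder and the non-responder after therapy and at 582 and 1050 CPM in the responder and the non-responder before therapy. The heat shock cognate HSPA8 went the other way, at 1373 and 849 CPM in the responder and the non-responder after therapy and 1157 and 597 CPM in the responder and the non-responder before therapy. PPP5C, a phosphatase of the complex, stood at 49.3 and 37.3 CPM in the responder and the non-responder after therapy and at 53.9 and 26.5 CPM in the responder and the non-responder before therapy. DESeq2 called FKBP5 and HSPA8 of these 12 higher in the responder, beside 2.14% of all genes. edgeR called 0, with 4 at an unadjusted p under 0.05, beside 2123 of 24069 of all genes.

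Coregulators of the receptor, 14 genes, had medians of -0.16 after and -0.47 before therapy. At each time 1 gene was at least 2-fold lower (7.14%, all genes 8.87% after and 8.94% before therapy). These were NRIP1, a corepressor of nuclear receptors, at 38.5 and 83.2 CPM in the responder and the non-responder after therapy, and the coactivator NCOA2, at 39.3 and 87.5 CPM in the responder and the non-responder before therapy. Of the genes that make or break down active steroid, HSD11B1, which regenerates cortisol, and HSD11B2, which inactivates it, lay at or under 0.34 CPM in every library. H6PD, which supplies the cofactor of HSD11B1, stood at 35.6 and 17.3 CPM in the responder and the non-responder after therapy and at 19.4 CPM in both libraries from before therapy. ABCB1, an efflux pump that exports steroids, was somewhat higher in the responder, at 100.3 and 69.2 CPM in the responder and the non-responder after therapy and 53.5 and 38.2 CPM in the responder and the non-responder before therapy.

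Close relatives of the targets and of the receptor, NR3C2 among them, are described next. TSC22D4 lay between 20.4 and 23.6 CPM in the 4 libraries, and TSC22D2 stood at 23.1 and 35.9 CPM in the responder and the non-responder after therapy and 21.1 and 38.4 CPM in the responder and the non-responder before therapy. TSC22D1 stood at 24.1 and 45.9 CPM in the responder and the non-responder after therapy and at 18.2 and 15.1 CPM in the responder and the non-responder before therapy. KLF13, a close relative of KLF9, stood at 27.0 and 29.1 CPM in the responder and the non-responder after therapy, where KLF9 was 4.62-fold apart, and at 34.6 and 69.4 CPM in the responder and the non-responder before therapy. Of the 12 relatives, 9 had at least 5 CPM, with 0 higher and 1 (11.1%) lower by at least 2-fold in the responder at each time. These were NR3C2, the relative of the receptor, after therapy and KLF13 before therapy. Of all genes, 8.87% were lower and 5.78% higher by that much after therapy, and 8.94% and 11.5% before therapy. Of 12 regulators and substrates of SGK1, 10 had at least 5 CPM. At either time 0 of these were at least 2-fold apart, beside the same shares of all genes. RICTOR, the mTORC2 subunit needed to activate SGK1, stood at 93.6 and 149 CPM in the responder and the non-responder after therapy and at 74.7 and 146 CPM in the responder and the non-responder before therapy. MTOR, the kinase of that complex, stood at 56.2 and 38.7 CPM in the responder and the non-responder after therapy and at 35.4 and 20.9 CPM in the responder and the non-responder before therapy.

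Cytokine and inflammatory genes that glucocorticoids are known to repress were, after therapy, mostly lower in the responder, as the induced genes were. Of 18 such genes, 9 had at least 5 CPM in the pair from after therapy. Of these, 5 were lower and 0 higher by at least 2-fold in the responder (all genes 8.87% and 5.78%). IL1B, a cytokine mostly of monocytes, stood at 1.20 and 13.2 CPM in the responder and the non-responder after therapy, and CXCL8, the neutrophil chemokine, at 4.08 and 25.0 CPM in the same libraries. TNF stood at 5.22 and 33.2 CPM in the responder and the non-responder after therapy. Before therapy IL1B stood at 0.58 and 0 CPM in the responder and the non-responder, CXCL8 at 3.97 and 2.44 CPM, and TNF at 36.3 and 44.0 CPM. IFNG, an effector cytokine of CD8+ T cells, stood at 22.5 and 84.3 CPM in the responder and the non-responder after therapy and at 55.2 and 104 CPM in the responder and the non-responder before therapy. Before therapy 7 had at least 5 CPM, of which 1 was lower and 1 higher by at least 2-fold (all genes 8.94% and 11.5%). Median log2 ratios over the 14 genes with at least 1 CPM in a library were -0.61 after and -0.064 before therapy. Between times their medians were below 0 where those of the induced genes were above it, at -0.24 in responders and -0.26 in non-responders. The genes were split, with 7 higher and 7 lower after therapy in responders, and 5 higher and 9 lower in non-responders. Of 7 with at least 5 CPM in responders, 0 were higher and 3 lower by at least 2-fold (all genes 8.5% and 4.65%). Of 9 in non-responders, 4 were higher and 2 lower by that much (all genes 15.7% and 8.29%). DESeq2 called only IFNG of this list for response, lower in the responder, beside 2.29% of all genes called lower. edgeR called 0 of the 16 tested, with 2 at an unadjusted p under 0.05, beside 2123 of 24069 of all genes.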

How the data were processed

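Per the labels' protocols, RNA of sorted CD8+ T cells was copied to cDNA (SMARTer Ultra Low kit) and read in pairs of 101 bases on an Illumina HiSeq. The submitters' processing notes name bcl2fastq 1.8.4, TopHat2 and the build hg38. How reads were counted, with which annotation and whether by strand, is not given in the sources used here. The deposited files hold raw counts per gene for 64253 genes, with a gene length; symbols and coordinates are theirs. No molecular identifiers are stated, so intervals cover counting error only.

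Tables and tests held 59441 genes, without 4146 entries on alternate contigs and 666 sex-informative genes, whose counts stayed in library totals. Levels are TMM-normalised CPM. Log2 ratios used a prior count of 0.5, with exact conditional binomial 95% intervals. Counts of genes at least 2-fold apart in 1 pair took genes that reached 5 CPM in either library. Counts over both pairs of a comparison took genes that reached 5 CPM in at least 1 of the 4 libraries. The fits used edgeR 4.0.16 (filterByExpr, quasi-likelihood test), DESeq2 1.42.0 and limma-voom (limma 3.58.1) in R 4.3.3, with response and time as additive terms over 4 libraries and two-sided p-values adjusted by Benjamini-Hochberg over all genes tested, at a threshold of 0.05. The SE of an edgeR ratio is its size divided by the square root of F. A p-value here draws on these 4 libraries alone, with 1 residual degree of freedom and each gene's variance estimated partly from other genes. It does not measure the spread among patients. The fit was also run on simulated data, and no result here rests on that run.

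The members and the 17 gene lists were chosen with earlier results of these data known. Named genes were the 5 members, up to 4 genes of a list with the largest absolute log2 ratio of responder over non-responder at either time (the higher library having 5 CPM and 50 reads or more), and the 3 genes nearest to each member in profile. HSP90AA1, FKBP4, HSD11B1, HSD11B2, TSC22D4, CD163, IL1R2, IL7R, TXNIP, CXCR4 and FCGR3B were named outside this rule. Alternatives were other scalings, priors, filters and tools, a fit without the covariate, and leaving out each library.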

Additional observations from a re-analysis of the deposited data

Results flagged for a closer look

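For NR3C1 the difference between times ran in opposite directions in the 2 response groups: the log2 ratio of after over before therapy was 0.46 in responders and -0.26 in non-responders, and the second value turned to 0.034 with libraries scaled to their CD3 and CD8 chains. KLF9 was opposite in the other sense, at -0.23 in responders and 1.03 in non-responders. The counting intervals of all 4 ratios lay away from 0. Each ratio compares 1 library with another, so the difference between the groups was not tested.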

How the results depend on the processing

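The direction of each gene's ratio in the 4 pairs was the same under TMM, library size only and DESeq2 size factors, and scaling to the CD3 and CD8 chains turned NR3C1 between times in non-responders. That scaling moved all genes by -0.46 and -0.25 (log2, responder over non-responder after and before therapy) and by 0.29 after over before in non-responders, and library size only moved them by -0.11 in responders. Under the CD3 and CD8 scaling all 5 genes were at least 2-fold apart before therapy, and the induced-gene median was -1.46 after therapy and 1.17 between times in non-responders. Genes at least 2-fold higher and lower in the responder came to 224 and 2272 after therapy (716 and 1100 under TMM) and to 909 and 1725 before therapy (1414 and 1101). Between times in non-responders they were 3130 and 613 (1973 and 1044 under TMM). With library size only, 0 of the 5 genes passed 2-fold between times in responders, where FKBP5 was just short at 0.98, and all genes split into 793 higher and 750 lower (1039 and 569 under TMM). Without early response genes the induced-gene medians were -0.62 and -0.29 (responder over non-responder after and before therapy) and 0.97 (after over before in non-responders). With a limit of 1 CPM, 3760, 5246, 3571 and 5939 genes were at least 2-fold apart in the pairs after therapy, before therapy, in responders and in non-responders, against 1816, 2515, 1608 and 3017; this limit takes in more genes.

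DESeq2 called 947 genes for response and 1556 for time, against 0 and 0 in edgeR. limma-voom, and edgeR with no filter on low counts, called 2 genes each for time, LYZ and RP11-1143G9.4 both times. Leaving out each library, with the covariate dropped, gave 0 calls throughout. Of the fitted time ratios, which without the response term were 0.040 for NR3C1, 2.24 for SGK1 and 0.71 for KLF9 over all libraries, NR3C1 turned to -0.024, SGK1 to -0.34 and KLF9 to -0.78 without the non-responder library after therapy, and NR3C1 to -0.32 without the responder library before therapy. The cause of these changes was not tested. No paired analysis was possible because the labels tie no libraries to the same patient and the groups share a single replicate number. Depth limited counts least for TSC22D3 and most for KLF9, with 694 to 3677 reads.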
